A study of Mus musculus with 9 samples.

Results

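Binding of the transcription factors T, TCF1 and SMAD1 was measured at 4 genes of the primitive streak, Fgf8, Mixl1, Eomes and Evx1, in mouse epiblast-like cells on the way to primordial germ cell-like cells. The genes were taken as fixed genome intervals of build mm9, set by name and position and not by a measured value, though with earlier results of these data known. They were Fgf8 on chromosome 19 from 45750001 to 45870001, Mixl1 on chromosome 1 from 182570001 to 182680001, Eomes on chromosome 9 from 118330001 to 118450001 and Evx1 on chromosome 6 from 52220001 to 52320001. Together they held 446 of the 2654924 counting windows of the series. A window was 2 kb long and stepped by 1 kb, so that neighbouring windows share reads. A filter on input level kept 438 of them, of which 113 lay at Fgf8, 109 at Mixl1, 119 at Eomes and 97 at Evx1. The 8 windows lost had too little input, 6 at Fgf8 and 2 at Evx1.

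The primitive streak is the site of gastrulation, where epiblast cells leave the epithelium and become mesoderm and endoderm under WNT, BMP and Nodal signals. Fgf8 encodes a secreted fibroblast growth factor that streak cells need to migrate away. Mixl1 and Evx1 encode homeobox transcription factors of the streak, and Eomes encodes a T-box transcription factor needed for early mesoderm and endoderm. T (Brachyury) is itself a T-box factor of the streak, TCF1 binds WNT response elements and recruits beta-catenin, and SMAD1 carries the BMP signal to chromatin. The same signals also start primordial germ cells from the epiblast.

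The promoters of Evx1 and Eomes are shown because Fgf8 and Mixl1 had no entry among the promoters used. The Evx1 interval held the only TCF1 call among the 4 genes and the Eomes interval held no call. RefSeq promoters were matched by symbol for 2 of the 4 genes, in build GRCm38.p6, and run from 250 bases before to 50 after the start of the gene. Both lie on the plus strand, Evx1 at chr6:52313248-52313547 and Eomes at chr9:118477939-118478238. The counting windows are in mm9, so the promoters were not placed among them. Capitals mark matches to any of 5 motifs searched on both strands.
Evx1: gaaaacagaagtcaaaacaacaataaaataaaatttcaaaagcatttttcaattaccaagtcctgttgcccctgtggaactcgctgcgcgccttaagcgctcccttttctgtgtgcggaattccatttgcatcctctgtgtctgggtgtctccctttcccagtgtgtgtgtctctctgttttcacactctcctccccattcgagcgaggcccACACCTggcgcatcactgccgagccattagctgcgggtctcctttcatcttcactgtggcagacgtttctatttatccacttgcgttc
Eomes: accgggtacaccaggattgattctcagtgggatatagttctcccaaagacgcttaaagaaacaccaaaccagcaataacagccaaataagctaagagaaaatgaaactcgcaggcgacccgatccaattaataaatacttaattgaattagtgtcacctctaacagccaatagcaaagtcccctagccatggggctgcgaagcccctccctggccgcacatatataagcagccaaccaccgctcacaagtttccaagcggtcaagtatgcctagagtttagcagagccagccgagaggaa
The motifs were the T half-site AGGTGTGA, its shorter core AGGTGT, the TCF element CTTTGAT, and the SMAD motifs GGCGCC and GTCTAGAC, and a full T half-site also counts as a match to its core. The Evx1 promoter held 1 match, the T-box core on the minus strand, a motif that 13.7% of 32851 promoters hold. The Eomes promoter held none. The T half-site stood in 1.28% of all promoters, the TCF element in 3.73%, GGCGCC in 11.9% and GTCTAGAC in 0.213%. A match is a description of letters and not a binding site.

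There were 6 immunoprecipitated libraries and 3 inputs. T was profiled in the PV line, a Prdm14-mVenus reporter, and TCF1 in the BV line, a Blimp1-mVenus reporter. SMAD1 had a library for each of 12, 24 and 36 h in BV, and another for 36 h in PV. The inputs are titled PV, BV and BVSC, the last also labelled as the BV genotype, and every library is labelled C57BL/6 and epiblast-like cell. Embryonic stem cells had first been turned into epiblast-like cells with activin A and basic FGF, per the labels' protocols, and then cultured floating with LIF, some with the cytokines BMP4 and WNT3A and some without. Which library received which cytokine was not given in the labels, nor was the time of the T and TCF1 libraries. Read counts alone hold no check of the labelled cell type. Immunoprecipitated libraries held 14925074 to 43354004 reads and inputs 42532115 to 134657262, and an average autosomal window held 11.8 to 34.2 immunoprecipitated counts. Each group was 1 library, so no difference below has a replicate check or a p-value. Intervals on ratios are 95% intervals by the exact Clopper-Pearson method and come from the split of the 2 counts. They hold counting error alone, and PCR copies of 1 molecule are counted as if independent.

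Enrichment was the scaled count over the scaled input of the same line, with 0.5 added to both, where scaling sets the mean autosomal window to 1. A window was called where both the enrichment and the scaled immunoprecipitated count were at least 4, and raised where both were at least 2. T was called in 2 of the 438 windows, both at Fgf8, beside 0.0482% of all 2367750 windows kept. TCF1 was called in 1, at Evx1, beside 0.00283% of all windows. SMAD1 was called in no window at these genes in any of its 4 libraries, where the share of all windows called was 0.00946% for the 12 h library, 0.00405% for 24 h, and for 36 h 0.000887% in BV and 0.00557% in PV. At such shares most stretches of 438 windows hold no call, so the lack of SMAD1 calls does not set these genes apart. The summit of a library at a gene is the window of highest enrichment among those with a scaled count of at least 2.

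**Figure D1:**
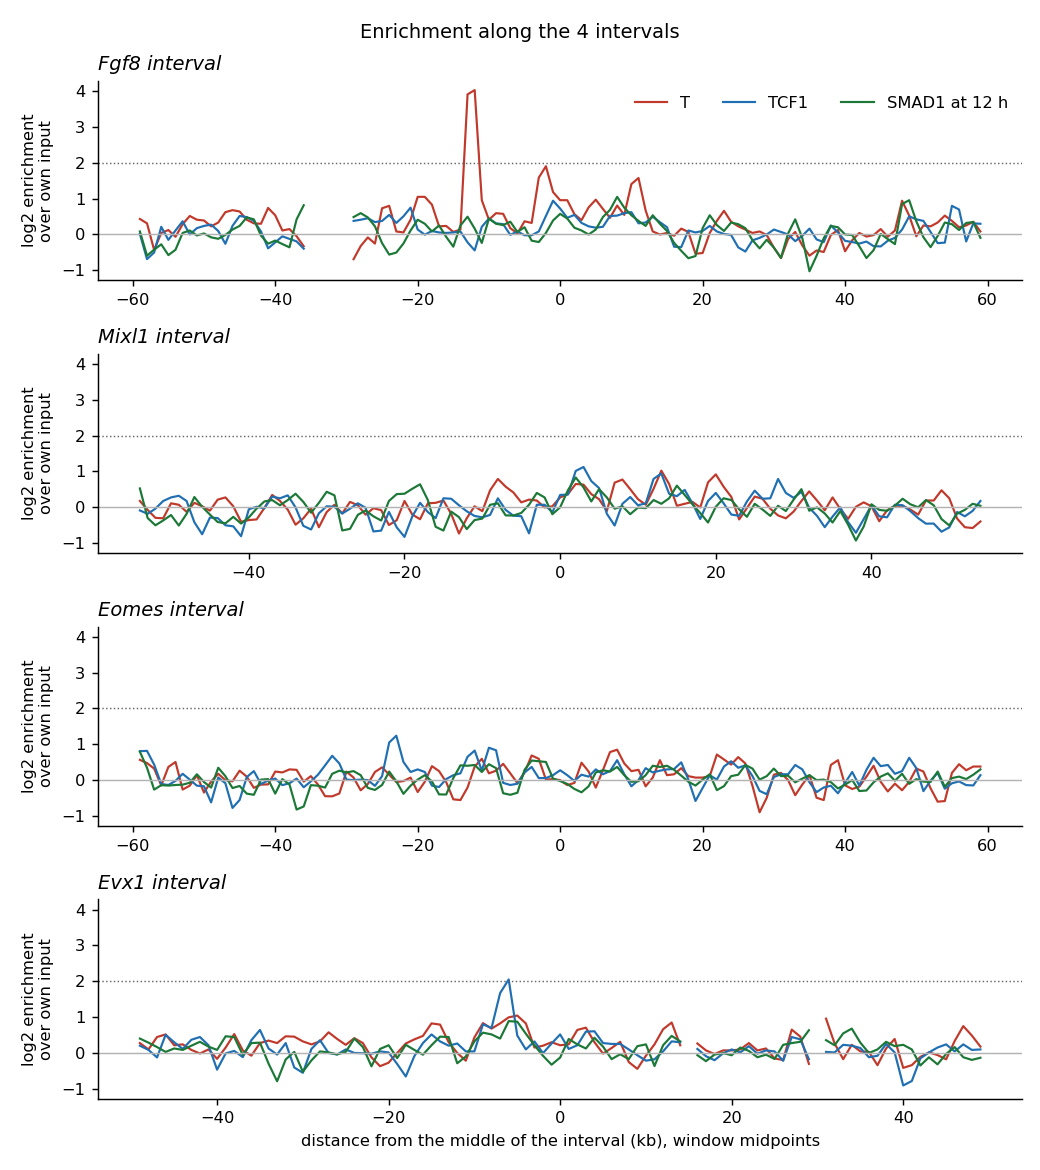
Log2 enrichment over the input of the same line along the Fgf8, Mixl1, Eomes and Evx1 intervals, by distance in kb from the middle of each interval, for T, TCF1 and SMAD1 at 12 h. Gaps are windows lost to the input filter and the dotted line is an enrichment of 4, which T passed at Fgf8 (16.3) and TCF1 at Evx1 (4.14).

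T at Fgf8 was the strongest signal at the 4 genes. The called region ran from 45796001 to 45799001 on chromosome 19, and its summit window from 45797001 to 45799001 held 533 T counts against 51 in input PV. Enrichment there was 16.3, and the plain ratio without the added 0.5 was 21.4 (95% interval 16 to 29.1). The region ranked 11th among the 678 regions called for T in the genome. Of 20699 segments of 120 kb along the autosomes and the X chromosome, 10 (0.0483%) had a summit as high.

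The Fgf8 summit could be narrowed further, since each window is the sum of 2 neighbouring bins of 1 kb. A single bin, from 45797001 to 45798001, held 495 T reads against 28 in input PV, with 23 and 38 T reads in the bins on either side. The median bin of the interval held 12 T reads. The best bin took 89% of the reads of these 3 bins, against a median of 73% over the 678 T regions, and 27 of those regions (3.98%) had a share as high. Filters on duplicate reads are not given, and many molecules in 1 kb cannot be told apart from copies of fewer molecules in these counts.

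No other library came near the T value at this summit. TCF1 held 24 counts against 179 in input BV (enrichment 0.735), and SMAD1 in PV, from the same line as T, held 54 against 51 in input PV (1.03). In BV, SMAD1 enrichment was 1.12 (12 h), 1.3 (24 h) and 1.43 (36 h). The interval of the plain ratio at 36 h in BV, 1.03 to 2.29, lay just above 1. Within the summit bin alone, these 3 libraries measured 1.46, 1.34 and 1.88. After scaling, T stood 20.6 times above SMAD1 in PV (interval 15.6 to 27.8). The scaled count of input PV was 1.52 in this window, and input PV over input BV measured 0.923.

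**Figure D2:**
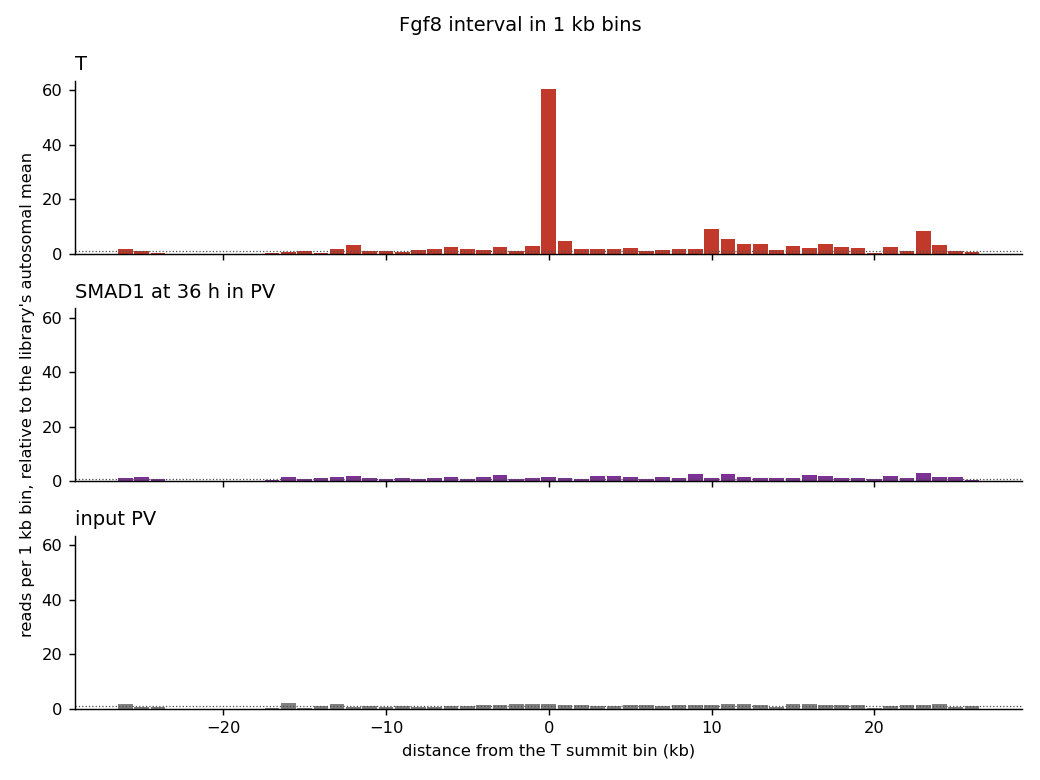
Reads per 1 kb bin around the T summit bin at Fgf8, relative to the mean autosomal bin of each library, for T, SMAD1 at 36 h in PV and input PV on 1 shared axis. The summit bin held 495 T reads, 30 SMAD1 reads and 28 input reads, and the lower T peaks stand 10 and 23 kb to its right.

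T was also raised at lower sites around Fgf8. Raised windows numbered 8 of 113 (7.08%), beside 0.412% of all windows kept, and they formed 4 regions, the called region included. The second in strength ran from 45806001 to 45810001, where the summit window at 45807001 held 121 T counts against 54 in input PV (enrichment 3.74, plain ratio 4.59, interval 3.3 to 6.44). Its best bin lay 10 kb from the summit bin and held 75 T reads against 26 in input PV, with 24 in SMAD1 in PV. In this summit window TCF1 measured 1.43 and the SMAD1 libraries lay between 1.03 and 1.43.

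The third ran from 45819001 to 45822001 with an enrichment of 2.98 (95 T counts against 54 in input PV, plain ratio 3.6, interval 2.55 to 5.13), and its best bin, 23 kb from the summit bin, held 68 T reads against 26 in input PV. SMAD1 in PV also held more reads than input in that bin, 53 from a library of similar depth to input PV, and its part in the T value was not tested. The weakest, at 45790001 to 45792001, measured 2.07 with 35 T counts against 26 in input PV. Having 3 other raised T regions within 25 kb was rare among T regions: 3 of the 678 (0.442%), Fgf8 included, had as many, and 504 (74.3%) had none. The distance of 25 kb was chosen after the Fgf8 values were seen.

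TCF1 and SMAD1 were not called along Fgf8, though SMAD1 at 24 h had a raised window. A TCF1 summit as high as that of Fgf8 was found in 12.4% of segments of 120 kb. The TCF1 summit at 45808001 to 45810001, next to the second T site, held 60 counts against 128 in input BV (enrichment 1.92), and T measured 2.27 in that window. Input PV was itself 1.34 times input BV there, and its part in the T value was not tested. It was the highest of 72 values between pairs of the inputs at the summits of the 4 genes. Those values repeat where summits share a window, and some involve input BVSC. SMAD1 at 24 h was raised in 1 window at 45815001 to 45817001 (42 counts against 90 in input BV, enrichment 2.07), beside 0.0276% of all windows. Only 1.45% of segments of 120 kb had a 24 h summit as high. The same window measured 1.4 in the 12 h library and 0.811 in the 36 h library of BV. Beside it were windows of higher SMAD1 enrichment whose scaled counts missed the minimum of 2: 45816001 to 45818001 for 24 h (33 counts against 49 in input BV, enrichment 2.39) and 45817001 to 45819001 for 12 h (27 counts against 69 in input BV, enrichment 2.07). In the RefSeq order of genes, Fbxw4 and Npm3 are the protein-coding neighbours of Fgf8 and Oga follows Npm3, so a site in the interval is not assigned to Fgf8 by position alone.

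At Evx1 the leading factor was TCF1. Its called window, 52263001 to 52265001 on chromosome 6, held 121 TCF1 counts against 103 in input BV, the deepest input. Enrichment was 4.14 and the plain ratio 5.75 (interval 4.39 to 7.56). The region ranked 38th of the 41 regions called for TCF1, just past the threshold, and it was not called with 1 added in place of 0.5 (enrichment 3.34). Of 24815 segments of 100 kb, 37 (0.149%) had a TCF1 summit as high. Within the window a single bin, 52263001 to 52264001, held 99 TCF1 reads against 63 in input BV (plain ratio 7.7, interval 5.56 to 10.7), with 14 and 22 TCF1 reads on either side.

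The other BV libraries and T were also above input at this Evx1 window. At the TCF1 summit, T measured 1.99 (44 counts against 37 in input PV) and SMAD1 in BV measured 1.85 (12 h), 1.6 (24 h) and 1.78 (36 h), whereas SMAD1 in PV measured 1.17. Values as high were found in 0.489% of all windows for T and in 0.343% for SMAD1 at 12 h. TCF1 stood 2.51 times above SMAD1 at 12 h after scaling (121 against 32 counts, interval 1.69 to 3.83). The window before, 52262001 to 52264001, shares the bin and measured 3.18 for TCF1 (113 counts against 138 in input BV). The T summit lay in the window after, 52264001 to 52266001, with 56 counts against 47 in input PV (enrichment 2.06, interval of the plain ratio 1.62 to 3.67), a height that 20.1% of segments of 100 kb reached. T over SMAD1 in PV was 2.39 there (interval 1.6 to 3.58). Hoxa13, a gene of the HoxA cluster, precedes Evx1 in the RefSeq order and Hibadh follows it.

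**Figure D3:**
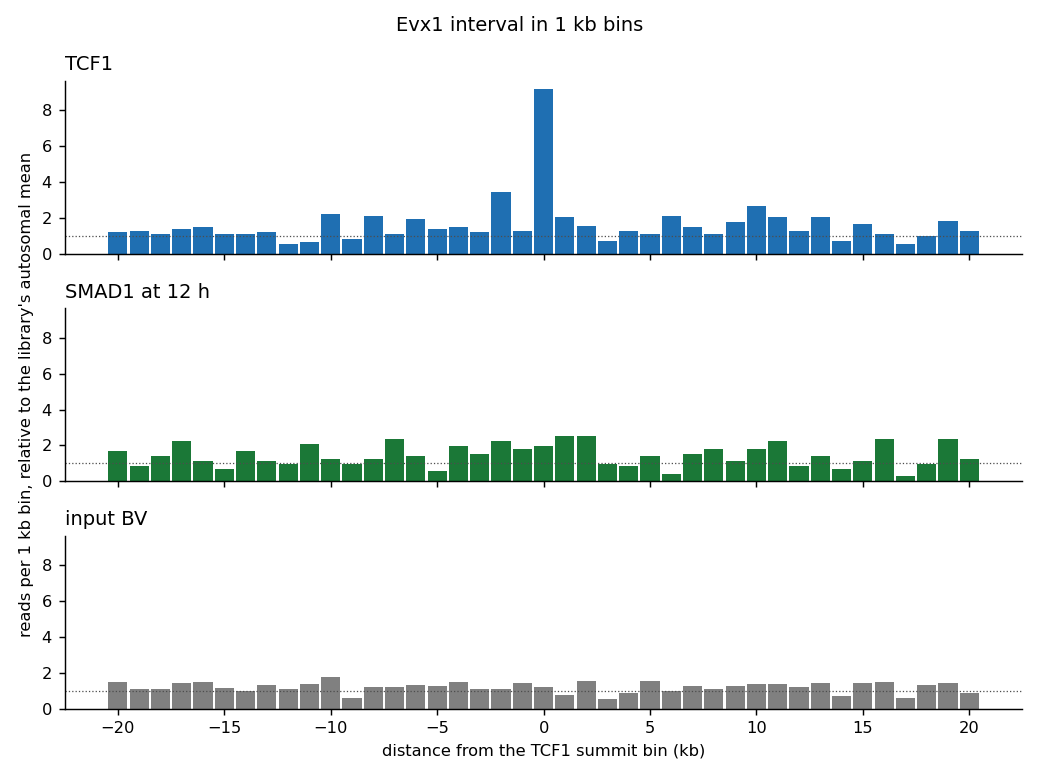
Reads per 1 kb bin around the TCF1 summit bin at Evx1, relative to the mean autosomal bin of each library, for TCF1, SMAD1 at 12 h and input BV on 1 shared axis. The summit bin held 99 TCF1 reads, 14 SMAD1 reads and 63 reads of the deeper input.

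At Eomes no factor was called, and T was not raised in any of the 119 windows. The T summit at 118397001 to 118399001 on chromosome 9 held 39 counts against 37 in input PV (enrichment 1.8), and 42.7% of segments of 120 kb had a T summit as high. TCF1 was raised in 2 windows that formed a region from 118365001 to 118368001. Its summit at 118366001 held 59 TCF1 counts against 92 in input BV, an enrichment of 2.36 and a plain ratio of 3.14 (interval 2.23 to 4.4), and 1.29% of segments of 120 kb reached it. The reads were spread over 3 bins with 24, 32 and 27 TCF1 reads, unlike the single bin at Evx1.

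TCF1 stood alone at this Eomes window. SMAD1 at 12 h held 12 counts against 92 in input BV (enrichment 0.977), so that TCF1 was 3.26 times SMAD1 at 12 h after scaling (interval 1.73 to 6.66). T measured 0.963 there, the later SMAD1 libraries of BV 1.24 (24 h) and 0.862 (36 h), and SMAD1 in PV 1.12. At the TCF1 summits of Fgf8 and Mixl1, TCF1 over SMAD1 at 12 h was 1.59 (interval 0.983 to 2.65) and 1.63 (0.999 to 2.74). Both of those intervals included 1. Choosing a window for its TCF1 value by itself raises such a ratio, at Eomes and Evx1 as well. The same holds for T over SMAD1 in PV at T summits. In the RefSeq order Golga4 is the next protein-coding gene after Eomes.

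Mixl1 carried low signals of several libraries in the same windows and no call. T was raised in 1 of its 109 windows, beside 0.412% of all windows. That window, 182637001 to 182639001 on chromosome 1, held 51 T counts against 43 in input PV (enrichment 2.03, plain ratio 2.43, interval 1.59 to 3.73). In this window SMAD1 at 36 h in BV held 33 counts against 120 in input BV (2.02), TCF1 57 against 120 (1.92) and SMAD1 at 24 h 42 against 120 (1.71). SMAD1 at 12 h and in PV stood near input, at 1.07 and 1.15. The TCF1 summit lay 10 kb away at 182627001 to 182629001, with 59 counts against 104 in input BV (enrichment 2.18, plain ratio 2.78, interval 1.98 to 3.86), in a raised region of 2 windows. A TCF1 summit as high was found in 2.34% of segments of 110 kb, and a T summit as high as that of Mixl1 in 21.9%. Lin9 and Acbd3 are the neighbours of Mixl1 in the RefSeq order.

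**Figure D4:**
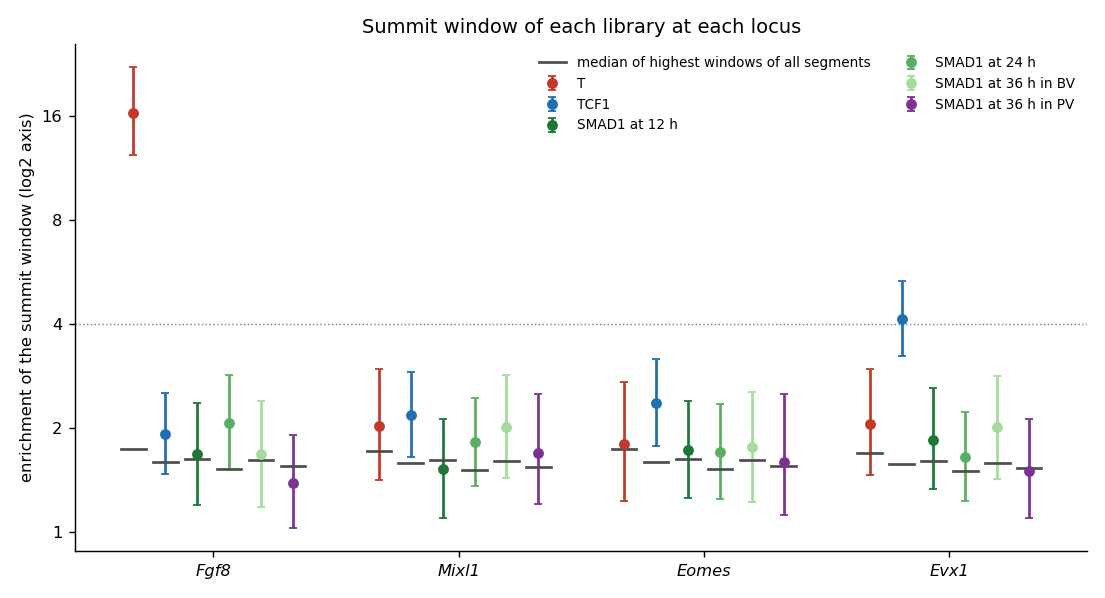
Enrichment of the summit window of each of the 6 immunoprecipitated libraries at each gene, on a log2 axis, with bars for the 95% counting interval and short grey lines for the median summit of all genome segments of the same length. T at Fgf8 (16.3) and TCF1 at Evx1 (4.14) stand at or above the dotted threshold of 4, and all other summits lie between 1.39 and 2.36.

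At the 12 h summits of the 4 genes, the later SMAD1 libraries of BV did not differ from 12 h beyond counting error. There the enrichment of SMAD1 at 12 h was 1.68 at Fgf8, 1.52 at Mixl1, 1.73 at Eomes and 1.85 at Evx1. Summits as high stood in 41.5%, 69.5%, 32.6% and 15.8% of segments of the same length, in that order of genes. The scaled ratio of 24 h to 12 h at the 12 h summits was 0.806 at Fgf8, 0.655 at Mixl1, 0.607 at Eomes and 0.83 at Evx1, and every interval included 1. The ratio of 36 h in BV to 12 h was 0.707, 0.589, 0.812 and 0.952 in the same order of genes, again with intervals that included 1. A ratio below 1 is also what choosing the highest window at 12 h gives, so no direction was read from these values. At the 24 h summit of Fgf8 named above, a window chosen for its 24 h value, SMAD1 had 42 counts at 24 h (plain ratio to input BV 2.69, interval 1.82 to 3.92) and 7 at 36 h in BV (0.7, interval 0.273 to 1.5), so these intervals did not overlap. The ratio between libraries was not computed at that window. Between the lines at 36 h, PV minus BV in log2 enrichment at the 12 h summits was 0.05 at Fgf8, 0.16 at Mixl1, -0.31 at Eomes and -0.61 at Evx1.

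The later SMAD1 libraries had their own summits, none of them called. At 24 h the summits of Mixl1 (182636001 to 182638001, 46 counts against 122 in input BV), Eomes (118397001 to 118399001) and Evx1 (52256001 to 52258001, 44 against 133) measured 1.82, 1.71 and 1.65. The 24 h summit of Eomes was the window of the T summit there. A 24 h summit as high was found in 1.45% of segments of 120 kb for the Fgf8 value of 2.07 and in 6.18% of segments of 110 kb for that of Mixl1. For Eomes the share was 15.9% of segments of 120 kb and for Evx1 21% of segments of 100 kb. At 36 h in BV the summit of Eomes measured 1.76 (26 against 110 in input BV), and that of Fgf8, in the window of the TCF1 summit, 1.68 (28 against 128).

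SMAD1 in PV, the deepest immunoprecipitated library, had no raised window at these genes. Its summits were 1.39 at Fgf8 (76 counts against 49 in input PV), 1.69 at Mixl1 (62 against 29), 1.6 at Eomes (43 against 20) and 1.5 at Evx1 (70 against 40). No window of Mixl1 or Eomes reached a scaled count of 2 in this library, so the highest of all windows was taken there. Without that minimum the highest windows were 1.59 at Fgf8 and 1.85 at Evx1, so the 4 summits do not rank the genes. Summits as high as the 4 stood in 86.2% of segments for Fgf8, 20.5% for Mixl1, 37.7% for Eomes and 56.6% for Evx1, which leaves them within the common range of the genome.

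Raised SMAD1 windows were few. None was found for 12 h, where 0.123% of all windows were raised, nor for 36 h in PV, with 0.0374%. The 24 h library had the 1 at Fgf8, and the 36 h library of BV had 2, beside 0.0429% of all windows. The 2 were the windows at Mixl1 named above and 52264001 to 52266001 at Evx1 (33 counts against 121 in input BV, enrichment 2.01), and both were also the T summits of their genes. SMAD1 at 36 h in BV was the shallowest library, so that a raised window there rests on about 30 counts.

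Set side by side, the genes differed in which factor led. At Fgf8 it was T, with 16.3 against 1.92 for TCF1 and 1.68 for SMAD1 at 12 h. At Evx1 it was TCF1, with 4.14 against 2.06 for T and 1.85 for SMAD1 at 12 h. TCF1 also had the highest summit at Mixl1 and Eomes, but its counting intervals overlapped those of T there. TCF1 was raised in 6 of 438 windows, 2 each at Mixl1, Eomes and Evx1 and none at Fgf8, beside 0.0919% of all windows. T was raised in 10, of which 8 lay at Fgf8, 1 at Mixl1 and 1 at Evx1, beside 0.412% of all windows. With that share, a single raised window among 109 at Mixl1 or 97 at Evx1 does not set either gene apart. T and TCF1 come from different lines and antibodies with 1 library each, so their enrichments do not rank how strongly the factors bound.

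Windows at 1.5 or more in at least 4 of the 6 libraries numbered 6 of 438, beside 0.153% of all windows, with 3 at Mixl1, 2 at Evx1, 1 at Fgf8 and none at Eomes. At 182626001 to 182628001 of Mixl1 5 libraries reached 1.5, led by TCF1 with 2.02, and SMAD1 at 24 h had 1.35. The median enrichment over a whole interval lay between 0.975 and 1.18, against genome medians between 0.973 and 0.987. Compared in log2 to 2 decimals, it was above the genome median in 23 of 24 pairs of gene and library. The remaining pair, TCF1 at Mixl1, was equal at that rounding and just above as a plain median, 0.975 against 0.973. The interval median was highest for T, at 1.18 both at Fgf8 and at Evx1. Libraries of all 3 antibodies were among those at 1.5 or more in these windows, except at Fgf8, where TCF1 had 1.44. TCF1 and the BV libraries of SMAD1 were divided by the same input, as were T and SMAD1 in PV. The libraries are thus not independent of one another here, and the part of the shared inputs was not tested.

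**Figure D5:**
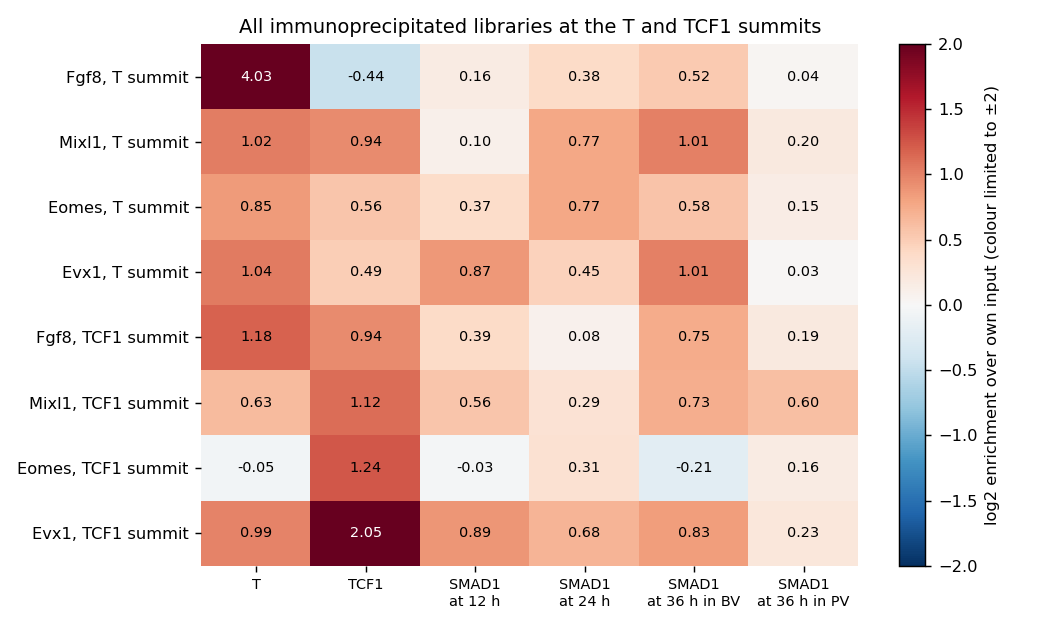
Log2 enrichment of the 6 immunoprecipitated libraries (columns) at the T summit and the TCF1 summit of each gene (rows). The T column stands alone in the row of the Fgf8 T summit, and at the TCF1 summit of Evx1 every library except SMAD1 at 36 h in PV was at 1.6 or more in enrichment.

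Regions elsewhere in the genome were ranked by their likeness to the T summit of each gene, as the Euclidean distance over the log2 enrichments of the 6 libraries, among 873 or 874 summits of regions called in any library. The Fgf8 summit was most like 2 other T regions, chromosome 10 at 92323001 to 92325001 (distance 0.52, T enrichment 14.2) and chromosome 2 at 159738001 to 159740001 (0.57, T enrichment 18.4). At both, TCF1 and the SMAD1 libraries lay between 0.91 and 1.46. The T summits of Mixl1, Eomes and Evx1, which were not called, had their nearest called regions at distances of 1.18, 1.25 and 1.19. Every candidate had an enrichment of at least 4 in some library, whereas T measured 2.03, 1.8 and 2.06 at these summits. The call rule thus sets a minimum distance there, and these distances are not comparable with those of Fgf8.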

How the data were processed

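Reads of chromatin immunoprecipitation and input DNA were sequenced as single ends of 50 bp on a SOLiD 5500xl, per the labels' protocols. The authors deposited whole read counts for windows of 2 kb at steps of 1 kb, not normalized. Per the submitters' processing notes, Bowtie 0.12.8 and mm9 were used. Whether duplicate or multiply mapped reads were removed was not given in the sources used here. Counts were divided by the mean count of the library over 2472353 autosomal windows. On the autosomes and X, a window stayed in if its scaled inputs averaged 0.25 or more and were all 3 or less, which left 2367750 of 2639004 (89.7%).

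The named windows were, per gene and library, the window with the highest enrichment among those with a scaled count of at least 2 (without that minimum where no window reached it, SMAD1 in PV at Mixl1 and Eomes), and every region called or raised. Genome segments were searched by the same rule. Bins of 1 kb were solved from overlapping windows, starting at empty chromosome ends. No bin fell below 0 on the 4 chromosomes in 8 libraries, and in input BVSC 47.4% did, so it was not split. The genes, rules and alternatives were chosen with earlier results of these data known, and the bins, the comparison of neighbouring T regions and the count over several libraries were added after seeing the data. The rule for calls was run on simulated data with planted signals. Gene order and promoters come from RefSeq, build GRCm38.p6. Other streak genes were not measured, since no mm9 annotation was used. Work was done in Python 3.11.15 with numpy 2.4.6, pandas 2.3.3, scipy 1.17.1 and matplotlib 3.10.9. Alternatives covered the input, the added value, the scaling, the filter, the threshold and windows that do not overlap.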

Additional observations from a re-analysis of the deposited data

How the results depend on the processing

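The T signal at Fgf8 kept its call under all alternatives run, with a highest enrichment between 13.3 (1 added to both values) and 20.1 (0.1 added), and 18.7 over input BVSC. The TCF1 call at Evx1 was near the threshold: it was lost with 1 added (0 windows called, enrichment 3.34) and at a threshold of 6 (0 windows), and its highest enrichment was 3.18 in the first of 2 sets of windows that do not overlap, which leaves out the summit window. TCF1 had 2 windows called at a threshold of 3 and 2 over input BVSC, and T had 4 over input BVSC. Counts of raised windows moved most. Over input BVSC they were 23 for T against 10, 0 for the 24 h SMAD1 library against 1 and 6 for SMAD1 at 36 h in BV against 2. With 0.1 added they were 24 for T, 12 for TCF1 against 6, 2 for SMAD1 at 12 h against 0, 2 at 24 h and 6 at 36 h in BV. With 1 added they were 2 for TCF1, 0 for the 24 h SMAD1 library and 0 for 36 h in BV. For the raised counts under another input the cause was not tested. The share of all windows called or raised under each alternative is not given here. A change in a count is therefore not read as particular to these genes. None moved by more than its counting interval among 432 enrichments at summits and 64 ratios between libraries, and none of 144 medians moved by more than 1 SD of the windows of its gene. That SD rule is wide: windows of SMAD1 at 12 h at Fgf8 ranged from 0.491 to 2.07, with a median of 1.07 against a genome median of 0.976. It therefore does not test whether such small gaps between gene and genome medians held. The counting interval is wide too: for TCF1 at Evx1 it ran from 3.24 to 5.33, which includes the 3.34 at which the call was lost. Among the 432 enrichments, dropping the filter could not change the value of a kept window. The TCF1 and 12 h SMAD1 summits of Evx1 were the same window, counted under both names. No paired analysis was possible because each group has 1 library. Depth limits what a raised window shows, since an average window held 11.8 to 34.2 immunoprecipitated counts.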

Other observations

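In bins of 1 kb, TCF1 had a lone bin near the end of the Fgf8 interval that no window showed well. The bin from 45865001 to 45866001 on chromosome 19 held 37 TCF1 reads against 52 in input BV (plain ratio 3.48, interval 2.22 to 5.41), whereas the bins on either side held 2 and 4, below the median of 14 TCF1 reads per bin of the interval. Enrichment in the same bin was 2.65 for TCF1 and 1.21 for T (15 reads). SMAD1 in BV measured 1.09 (12 h, 8 reads), 1.51 (24 h) and 1.6 (36 h), and SMAD1 in PV 1.35. The windows that contain it had TCF1 enrichments of 1.74 and 1.62. It was chosen as the most enriched TCF1 bin of the interval after the values were seen.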
